A study of Mus musculus with 3 samples.

Results

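The glycolysis and hypoxia genes are 34 listed mouse genes that carry glucose to lactate or answer to low oxygen. They were chosen by symbol, and all 34 were found among the 32285 genes of the deposited matrices. They comprise the glucose transporters Slc2a1 and Slc2a3, the enzymes of glycolysis with their isoforms, the pyruvate dehydrogenase kinase Pdk1, the lactate exporter Slc16a3, and 12 genes of the hypoxia response. In glycolysis, hexokinase traps glucose in the cell, phosphofructokinase commits it, and pyruvate kinase and lactate dehydrogenase end the path in lactate. When oxygen is scarce, prolyl hydroxylases such as those encoded by Egln1 and Egln3 no longer mark the alpha subunit of HIF for destruction, and this transcription factor raises most glycolytic enzymes together with genes of mitophagy, blood vessel growth and protein folding. Activated T cells are known to take up more glucose as they divide, and macrophages and neutrophils of poorly perfused tumour regions are known for a hypoxia response.

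The genes were measured in CD45+ cells, the leukocytes, of tumours of B16F10, a mouse melanoma line. C57BL/6 mice carried the tumours under the skin and received gp100-specific cytotoxic T lymphocytes (CTLs) on day 9 after inoculation, CTLs that had been activated in culture and bear the Pmel-1 receptor against this melanocyte protein. The 3 groups are tumours taken 3, 7 and 14 days after the transfer, with 1 library of the 10x Genomics 3′ kit per day that pools equal numbers of cells from 3 mice. All 3 groups carry the tumour and received the CTLs, so there is no untreated group here, and the day, the age of the tumour and the library cannot be told apart. The labels name both a cell sorter and magnetic beads for the CD45+ selection, and their cell type field holds the strain.

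Cells were described in 8 gates set by marker UMIs (unique molecular identifiers, each 1 captured RNA molecule), none of which is a member: CD8 T cells without or with cycling transcripts (Mki67 plus Top2a at 0 or at least 3 UMIs), NK cells, Ly6c2 and Chil3 monocytes, macrophages with at least 5 Arg1 or at least 5 Pf4 UMIs, Cd209a type 2 dendritic cells (cDC2) and neutrophils. The 3 libraries held 3656, 3038 and 3549 barcodes with 33096709, 29547433 and 35742070 UMIs at days 3, 7 and 14. A gate held 1530, 1528 and 1612 of them, and 144, 97 and 302 were in several gates at once. Barcode sequences found in more than 1 library made up 18.2, 16.1 and 15.3% of barcodes, and 37.2, 50 and 22.5% in the cycling CD8 gate. A UMI of Ptprc, which encodes CD45, was found in 96.4, 96.3 and 92% of gated cells. The CD8 T, NK, monocyte, cDC2 and neutrophil marker lists each summed highest in their own gate, and the macrophage list in Pf4 and then in Arg1 macrophages, where the cDC2 list came to 8629 to 11470.1 CPM against 29060.2 to 31476 CPM in cDC2. Macrophage markers (all 6 listed genes) summed to 489, 98.1 and 347 CPM in non-cycling CD8 T cells at days 3, 7 and 14, and to 80.2, 33.3 and 60.99 CPM once cells of several gates were left out. Over the 24 gate and library sums, melanoma markers came to 0 to 19.9 CPM. Levels are UMIs per 1000000 UMIs of the gate (CPM), listed for days 3, 7 and 14 in this order, and 95% intervals cover counting error only.

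The 34 genes together took the largest share of RNA in Arg1 macrophages. Their median share of a cell's UMIs was 2.68, 2.89 and 2.57% in that gate, 2.15, 2.18 and 2.11% in Pf4 macrophages, 1.42, 1.15 and 1.18% in cycling CD8 T cells and 1.10, 1.30 and 1.03% in neutrophils. Monocytes had 1.05, 0.861 and 1.08%, cDC2 0.688, 0.677 and 0.799%, non-cycling CD8 T cells 0.655, 0.643 and 0.547% and NK cells 0.504, 0.464 and 0.454%. Cells within a gate spread widely: the range from the lower to the upper quartile ran from 0.580 to 2.04% in day 3 monocytes and from 0.382 to 0.782% in day 3 NK cells. The order of gates was the same at the 3 days for Arg1 macrophages, Pf4 macrophages and NK cells, while cycling CD8 T cells, neutrophils and monocytes lay close to each other. Among Pf4 cells outside every other gate the median was 1.35, 1.24 and 0.995%, so the level of that gate rests on the cells that also passed the Arg1 gate. Gapdh, the enzyme with the most UMIs of the list, gave 15.02 to 34.7% of the member UMIs, and without it the median share was still highest in Arg1 macrophages (2.05, 2.07 and 1.96%) and lowest in NK cells (0.394, 0.362 and 0.353%). CD8 T cells with 1 or 2 cycling UMIs, which lie between the 2 CD8 gates, had medians of 1.19, 0.826 and 0.742% in 80, 119 and 77 cells.

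**Figure D1:**
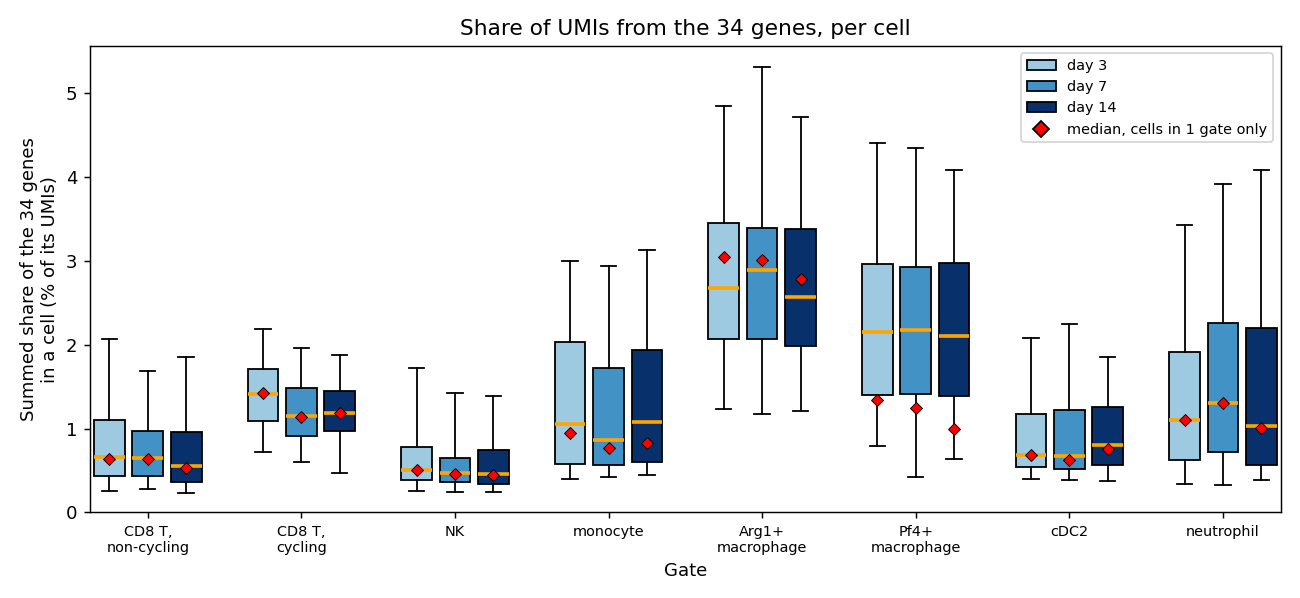
Summed share of the 34 genes in each cell's UMIs (percent, y axis) by gate and day. Boxes span the quartiles with the median as a line, whiskers reach the 5th and 95th percentiles, and red diamonds mark the median of cells that are in 1 gate only; Arg1 macrophages are highest at all 3 days, with medians of 2.68, 2.89 and 2.57%, and the diamond of Pf4 macrophages lies well under its box's line.

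Of the 34 members, 15 had their highest CPM in Arg1 macrophages at all 3 days, 7 in neutrophils (Slc2a3, Hk2, Pfkfb3, Pfkfb4, Slc16a3, Bnip3l and Egln3) and 2 in cDC2 (Pfkp and Aldoc). The other 10 changed their highest gate between days. NK cells were lowest at all 3 days for 8 members: Hk2, Gpi1, Gapdh, Pgk1, Pgam1, Ldha, Pdk1 and Slc16a3. These are orders of levels and not tests.

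**Figure D2:**
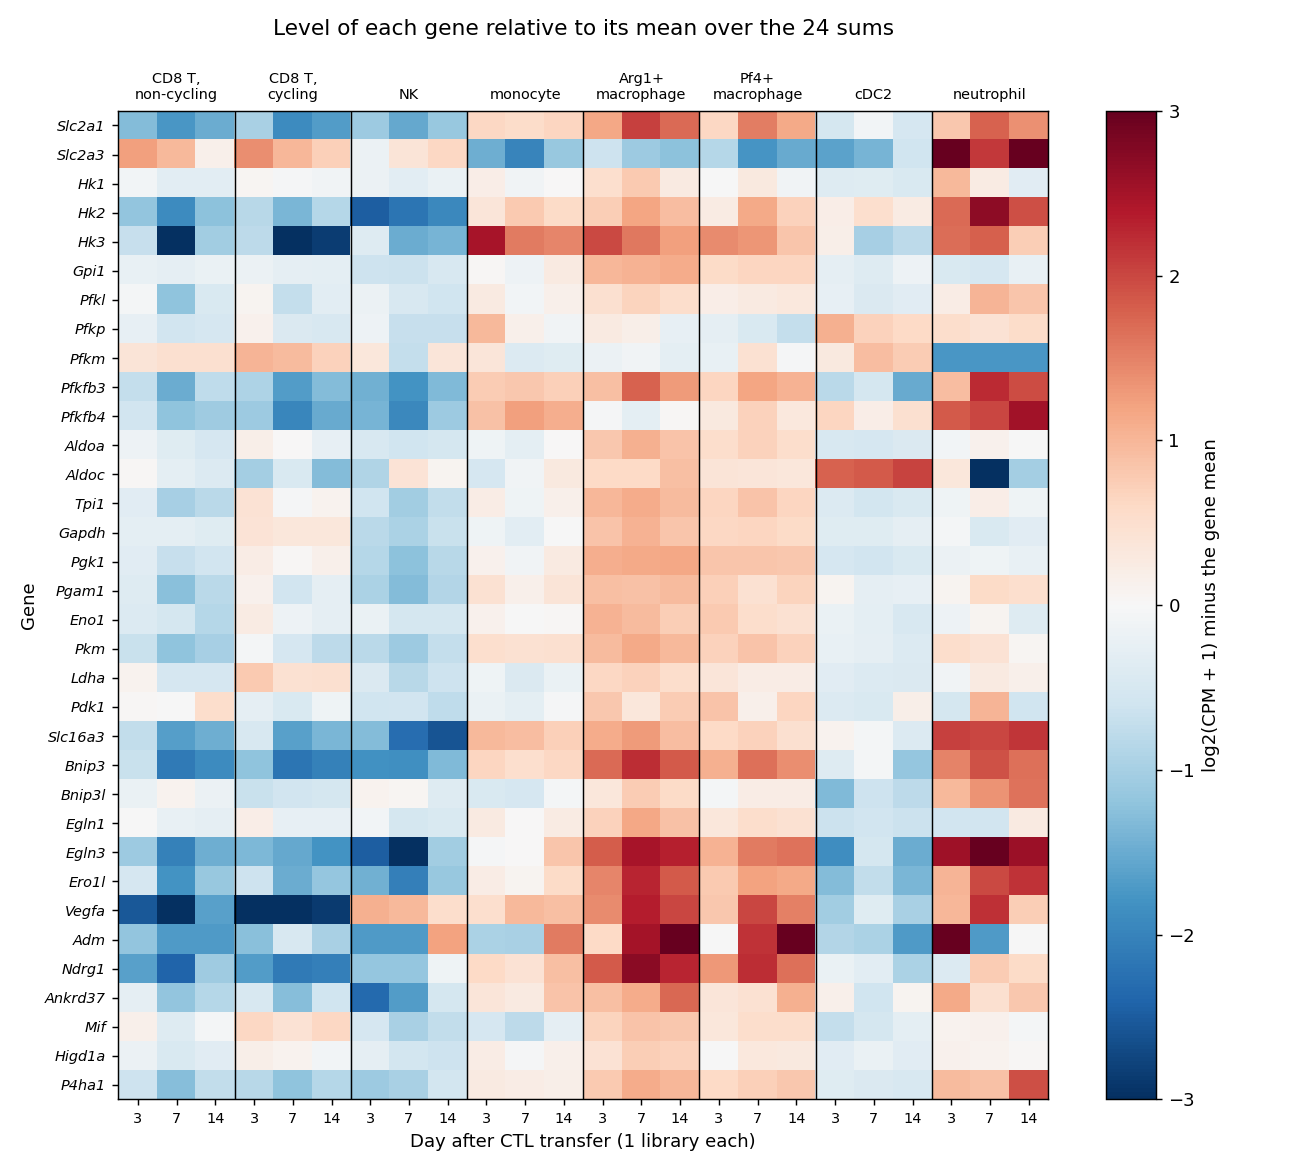
Level of each of the 34 genes (rows, by role) in 24 gate and library sums (columns, 8 gates with days 3, 7 and 14). Colour is log2(CPM + 1) minus that gene's mean over the 24 columns, so colours compare gates within a gene and not genes with each other; the Arg1 macrophage columns are above the mean for most rows, and Slc2a3 stands out in neutrophils.

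Slc2a1 had more UMIs than Slc2a3 in every whole gate and library, and Slc2a3 took larger shares in the lymphoid gates and neutrophils than in the other gates. In cells of 1 gate Slc2a3 gave 51.3% of the UMIs of both transporters in day 7 cycling CD8 T cells. Slc2a1, the widely used glucose transporter of activated and hypoxic cells, was at 405, 749.5 and 592 CPM in Arg1 macrophages, 319.8, 618 and 475 in neutrophils and 279.7, 268 and 284 in monocytes. It was far lower in the lymphoid gates, at 73.3, 53.2 and 63.9 CPM in non-cycling CD8 T cells, 92.4, 48.5 and 55.9 in cycling ones and 85.3, 62 and 81.5 in NK cells. Slc2a3, a transporter with a high affinity for glucose, was at 183, 94.8 and 298 CPM in neutrophils, above 49.97, 41.97 and 23.3 in non-cycling and 56.4, 42.4 and 35.1 in cycling CD8 T cells. In monocytes it was at 6.98, 4.57 and 8.97 CPM. Slc2a3 gave 40.5, 44.1 and 26.8% of the UMIs of both transporters in non-cycling CD8 T cells and 36.4, 13.3 and 38.6% in neutrophils, against 2.43, 1.67 and 3.06% in monocytes and 3.14, 1.23 and 1.39% in Arg1 macrophages. In the remaining gates Slc2a1 was at 281, 524 and 397 CPM in Pf4 macrophages and 125, 172 and 128 in cDC2. Slc2a3 was at 18.5, 27.6 and 32.6 CPM in NK cells, 13.1, 9.30 and 8.34 in Arg1 macrophages, 11.1, 5.39 and 6.69 in Pf4 macrophages and 6.17, 7.35 and 13.4 in cDC2, so among the lymphoid gates NK cells had the least of it at days 3 and 7. Such shares are UMIs of 1 gene over those of its family, and since capture can differ between genes they are compared between gates only.

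Among the 3 hexokinases, Hk1 took a larger share in each lymphoid gate than in each myeloid gate. Hk1, the hexokinase present in most tissues, gave 41.8, 56.5 and 40% of hexokinase UMIs in non-cycling CD8 T cells and 49.6, 54.2 and 52.5% in NK cells, but 14.8, 13.9 and 16.7% in monocytes and 18.1, 6.99 and 8.02% in neutrophils. Hk2, the inducible form, gave 60.95, 78.3 and 79.8% in neutrophils and 59.9, 72.1 and 68.3% in cDC2, with levels of 397, 786 and 462 and 138, 172 and 144 CPM. Hk3, a form of myeloid cells, was at 237, 127 and 118 CPM in monocytes and made up 51.4, 32.4 and 33.1% of their hexokinase UMIs. Hk1 was at 56.3, 47.04 and 47.5 CPM in non-cycling CD8 T cells, 61.6, 57.5 and 55.4 in cycling CD8 T cells, 52.3, 47.2 and 51.4 in NK cells, 68.3, 54.6 and 59.8 in monocytes, 84.4, 103 and 71.3 in Arg1 macrophages, 58.5, 72.8 and 54.98 in Pf4 macrophages, 44.7, 46.1 and 42.6 in cDC2 and 118, 70.2 and 46.4 in neutrophils, a narrow range beside that of Hk2, which was at 52.5, 32.2 and 51.2 CPM in non-cycling CD8 T cells, 67.3, 46.1 and 66.1 in cycling CD8 T cells, 20.9, 25.5 and 30.98 in NK cells, 156, 209.8 and 179 in monocytes, 202, 277 and 229.6 in Arg1 macrophages and 144, 268 and 197 in Pf4 macrophages. Hk2 was higher in each myeloid gate than in each lymphoid gate. Hk3 was at 24, 0.653 and 5.02 CPM in cycling CD8 T cells, 32.2, 14.5 and 15.5 in NK cells, 169, 127 and 100.1 in Arg1 macrophages, 114, 107 and 75.97 in Pf4 macrophages, 47.8, 20.7 and 23.9 in cDC2 and 137, 147 and 70.7 in neutrophils in the other gates. Its level in non-cycling CD8 T cells was 25.8, 3.98 and 20.1 CPM, and 12.1, 2.59 and 3.28 CPM where cells of several gates were left out.

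At the phosphofructokinase step Pfkp, the platelet form, held most UMIs in every gate, with 83.8, 81.6 and 79.7% in cDC2 and 64.4, 60.1 and 55.5% in Arg1 macrophages, and Pfkl, the liver form, held nearly all the rest. Pfkp was at 226, 179 and 188 CPM in non-cycling CD8 T cells, 292, 198 and 192 in cycling CD8 T cells, 239.7, 167 and 166 in NK cells, 531, 298 and 247 in monocytes, 322, 304 and 227 in Arg1 macrophages, 224, 194 and 162 in Pf4 macrophages, 559.7, 433 and 408 in cDC2 and 388, 361 and 393 in neutrophils. Monocytes had their highest Pfkp at day 3. Pfkl was at 120.3, 53.6 and 90.5 CPM in non-cycling CD8 T cells, 133, 76.2 and 99.7 in cycling CD8 T cells, 111, 89.9 and 82.4 in NK cells, 151, 117 and 139.9 in monocytes, 176, 199.5 and 181 in Arg1 macrophages, 144, 151 and 155 in Pf4 macrophages, 105, 92.2 and 99.2 in cDC2 and 146, 256 and 223 in neutrophils, with its lowest value in day 7 non-cycling CD8 T cells. Pfkm, the muscle form, was near its floor everywhere: 220 UMIs over the 24 sums, none of them in neutrophils, and it alone was too low for the comparisons of gates that follow. Pfkfb3 and Pfkfb4 make the sugar phosphate that activates phosphofructokinase. Pfkfb3 was at 62.1, 154 and 128 CPM in neutrophils and 60.4, 112 and 78.9 in Arg1 macrophages, and at 19.1, 10.9 and 18.4 in non-cycling CD8 T cells. Pfkfb4 was at 31.05, 35.1 and 50.8 CPM in neutrophils and 7.83, 6.34 and 8.21 in Arg1 macrophages. Elsewhere Pfkfb3 was at 16.5, 9.36 and 12.4 CPM in cycling CD8 T cells, 11.3, 8.61 and 12.2 in NK cells, 54.6, 57.2 and 53.6 in monocytes, 50.7, 74.6 and 66.9 in Pf4 macrophages and 17.7, 22.05 and 10.5 in cDC2, and Pfkfb4 at 5.08, 2.89 and 3.28 CPM in non-cycling CD8 T cells, 3.22, 1.31 and 2.18 in cycling CD8 T cells, 15.5, 20 and 18.1 in monocytes, 9.99, 13.5 and 10.2 in Pf4 macrophages and 13.1, 9.35 and 11.7 in cDC2. Pfkfb4 gave 42.5, 29.8 and 52.6% of the pair's UMIs in cDC2 and 11.5, 5.34 and 9.42% in Arg1 macrophages.

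Aldoa, the aldolase of most cells, held most aldolase UMIs in every gate. Aldoc, the second aldolase, gave 7.26, 7.67 and 8.21% in cDC2, where it was at 51.7, 54.1 and 61.9 CPM, and 1.14, 1.72 and 1.89% in monocytes. Aldoa was at 836, 725 and 651 CPM in non-cycling CD8 T cells, 1047, 932 and 778 in cycling CD8 T cells, 665, 611 and 645 in NK cells, 854, 757 and 930.1 in monocytes, 1613, 1951 and 1687 in Arg1 macrophages, 1339, 1494 and 1338 in Pf4 macrophages, 660.0, 651 and 691 in cDC2 and 872, 1014 and 921 in neutrophils. Aldoc was at 14.8, 11.6 and 10.6 CPM in non-cycling CD8 T cells, 6.63, 10.2 and 5.24 in cycling CD8 T cells, 7.24, 19.6 and 15.5 in NK cells, 9.85, 13.3 and 17.9 in monocytes, 22.4, 22.4 and 27.9 in Arg1 macrophages and 19.2, 18.9 and 18.6 in Pf4 macrophages in the other gates, below cDC2 at every day. Among the enzymes of the lower path, Gapdh was at 6434, 7263 and 6329.9 CPM in Arg1 macrophages, 4712, 4471 and 4523 in cycling and 2893, 2901 and 2755 in non-cycling CD8 T cells. Ldha, which turns pyruvate into lactate, was at 1873, 1482 and 1503 CPM in cycling CD8 T cells and 1674, 1752 and 1573 in Arg1 macrophages, and at 988, 807 and 945 in monocytes. Gpi1, Tpi1, Pgk1, Pgam1, Eno1 and Pkm followed Gapdh in having their highest level in Arg1 macrophages at every day. Slc16a3, which carries lactate out of the cell, was at 689, 674 and 742 CPM in neutrophils, 330.3, 315 and 274 in monocytes and 66.8, 33.4 and 26.9 in NK cells. Pdk1, which holds pyruvate back from the mitochondria, was at 48.4, 34.7 and 46.7 CPM in Arg1 macrophages and 17.7, 17.9 and 15.5 in NK cells. Reads of the near-identical copy Eno1b were few, 700 UMIs against 80807 of Eno1, and a second entry named Aldoa held 1 UMI.

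Most promoters of the members hold the core of the element that HIF binds. HIF is known to bind this core, spelled ACGTG or GCGTG, which reads CACGT or CACGC on the other strand. RefSeq's promoter table (build GRCm38.p6, 250 bases before to 50 after each start) held 31 of the 34 members with 45 windows. The core was found in 37 of these windows (82.2%) and in 14380 of 32851 windows of all genes (43.8%), either strand, with overlapping matches counted separately. GC content had a median of 62% in the members' windows and 52.7% in all windows. The windows shown belong to 5 members named in the comparisons of gates, and are written 5′ to 3′ on the gene's strand with the core in capitals. They lie at chr12:54203825-54204124, minus strand (Egln3, 1 match), chr14:45318523-45318822, minus strand (Ero1l, listed by RefSeq as Ero1a, 3 matches), chr7:138909457-138909756, minus strand (Bnip3, 5), chr7:110627407-110627706, plus strand (Adm, 2) and chr17:46032328-46032627, minus strand (Vegfa, 0 in this window and 2 in its second). A match is a description of these letters and no evidence of binding.
Egln3: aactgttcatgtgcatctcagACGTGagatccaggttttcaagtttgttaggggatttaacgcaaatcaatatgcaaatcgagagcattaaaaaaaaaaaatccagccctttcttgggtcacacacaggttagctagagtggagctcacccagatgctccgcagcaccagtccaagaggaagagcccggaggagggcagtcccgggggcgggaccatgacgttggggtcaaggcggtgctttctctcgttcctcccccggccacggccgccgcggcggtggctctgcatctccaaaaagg
Ero1l: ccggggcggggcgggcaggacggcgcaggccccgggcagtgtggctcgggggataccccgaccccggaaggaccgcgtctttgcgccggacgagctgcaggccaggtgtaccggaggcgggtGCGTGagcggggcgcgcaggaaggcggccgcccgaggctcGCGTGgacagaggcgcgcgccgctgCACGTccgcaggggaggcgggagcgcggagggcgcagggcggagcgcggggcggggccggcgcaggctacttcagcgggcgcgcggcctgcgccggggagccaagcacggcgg
Bnip3: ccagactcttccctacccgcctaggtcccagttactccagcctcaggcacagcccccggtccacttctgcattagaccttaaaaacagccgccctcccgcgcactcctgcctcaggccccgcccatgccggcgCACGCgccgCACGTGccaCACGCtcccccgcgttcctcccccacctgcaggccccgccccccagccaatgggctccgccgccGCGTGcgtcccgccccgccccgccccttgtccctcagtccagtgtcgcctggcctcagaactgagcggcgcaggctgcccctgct
Adm: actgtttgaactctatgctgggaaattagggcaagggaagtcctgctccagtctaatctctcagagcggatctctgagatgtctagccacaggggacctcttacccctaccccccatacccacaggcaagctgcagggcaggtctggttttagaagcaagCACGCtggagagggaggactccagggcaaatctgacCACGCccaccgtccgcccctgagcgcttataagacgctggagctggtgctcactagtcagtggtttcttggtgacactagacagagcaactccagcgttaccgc
Vegfa: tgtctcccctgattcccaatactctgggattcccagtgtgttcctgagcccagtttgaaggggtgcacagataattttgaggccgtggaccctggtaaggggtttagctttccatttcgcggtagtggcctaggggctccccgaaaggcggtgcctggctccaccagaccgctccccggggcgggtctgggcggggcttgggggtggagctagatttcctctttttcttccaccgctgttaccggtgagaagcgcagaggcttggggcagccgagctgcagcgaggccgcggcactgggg

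Egln3, a prolyl hydroxylase of HIF, separated the gates more than its relative Egln1. It was at 264, 505 and 267 CPM in neutrophils and 158, 249 and 228 in Arg1 macrophages, and at 20.3, 10.1 and 15.6 in non-cycling CD8 T cells and 11.6, 30.7 and 15.2 in cDC2. Its share of the pair's UMIs was 76.6, 86.2 and 64.7% in neutrophils, 44.7, 47.9 and 50.7% in Arg1 macrophages, 22.7, 26.6 and 35.7% in monocytes and 14.5, 8.95 and 13.4% in non-cycling CD8 T cells. Egln3 was at 16.8, 14.6 and 12 CPM in cycling CD8 T cells, 7.24, 2.76 and 21.2 in NK cells, 42.96, 44.6 and 80.1 in monocytes and 92.9, 133 and 139 in Pf4 macrophages in the other gates. Egln1, which sets HIF stability in normal oxygen, was at 119.8, 103 and 101 CPM in non-cycling CD8 T cells, 139.5, 103 and 101 in cycling CD8 T cells, 113, 83.4 and 88.1 in NK cells, 147, 123 and 145 in monocytes, 195, 272 and 222 in Arg1 macrophages, 153, 175 and 167 in Pf4 macrophages, 77.1, 80.8 and 77.6 in cDC2 and 80.7, 80.7 and 146 in neutrophils. Its highest levels were those of Arg1 macrophages, and its spread over the gates was narrower. Bnip3, a mitophagy receptor, held 62.5, 64.4 and 61.2% of the UMIs it shares with Bnip3l in Arg1 macrophages, against 32.1, 12.1 and 16.3% in non-cycling CD8 T cells and 14.3, 14.6 and 25.2% in NK cells. Bnip3 was at 67.3, 24.2 and 28.7 CPM in non-cycling CD8 T cells, 46.02, 22.9 and 25.97 in cycling CD8 T cells, 29.8, 29.3 and 42.4 in NK cells, 171, 154 and 167 in monocytes, 351, 508 and 387 in Arg1 macrophages, 227, 341 and 286 in Pf4 macrophages, 82.5, 104 and 47.8 in cDC2 and 307, 407 and 345 in neutrophils. Bnip3l, its relative, was at 143, 177 and 147 CPM in non-cycling CD8 T cells, 104, 111 and 113 in cycling CD8 T cells, 179, 172 and 126 in NK cells, 120.3, 116 and 157 in monocytes, 211, 281 and 246 in Arg1 macrophages, 158, 193 and 194 in Pf4 macrophages, 65.5, 107 and 95.7 in cDC2 and 326, 421 and 513 in neutrophils. Ero1l, an oxidase of protein folding in the endoplasmic reticulum, was at 442, 786 and 574 CPM in Arg1 macrophages, 323, 635 and 718 in neutrophils and 63.99, 95.5 and 61.3 in cDC2. Ndrg1, a stress-response gene, was at 325, 592 and 445 CPM in Arg1 macrophages and 68.3, 154 and 135 in neutrophils. Adm encodes adrenomedullin, a peptide that widens vessels, and was at 3.91, 17.3 and 30.7 CPM in Arg1 macrophages and at no more than 6.52 CPM in any lymphoid gate. P4ha1, a collagen prolyl hydroxylase, was at 130.4, 123 and 258 CPM in neutrophils. Ankrd37, a small ankyrin protein known as a HIF target, was at 84.2, 98.5 and 150.5 CPM in Arg1 macrophages. Mif, a cytokine, was at 1132, 1299 and 1259 CPM there and 1098, 965 and 1105 in cycling CD8 T cells, and Higd1a, a mitochondrial protein, ranged only from 150.0 to 386 CPM over all gates and days.

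**Figure D3:**
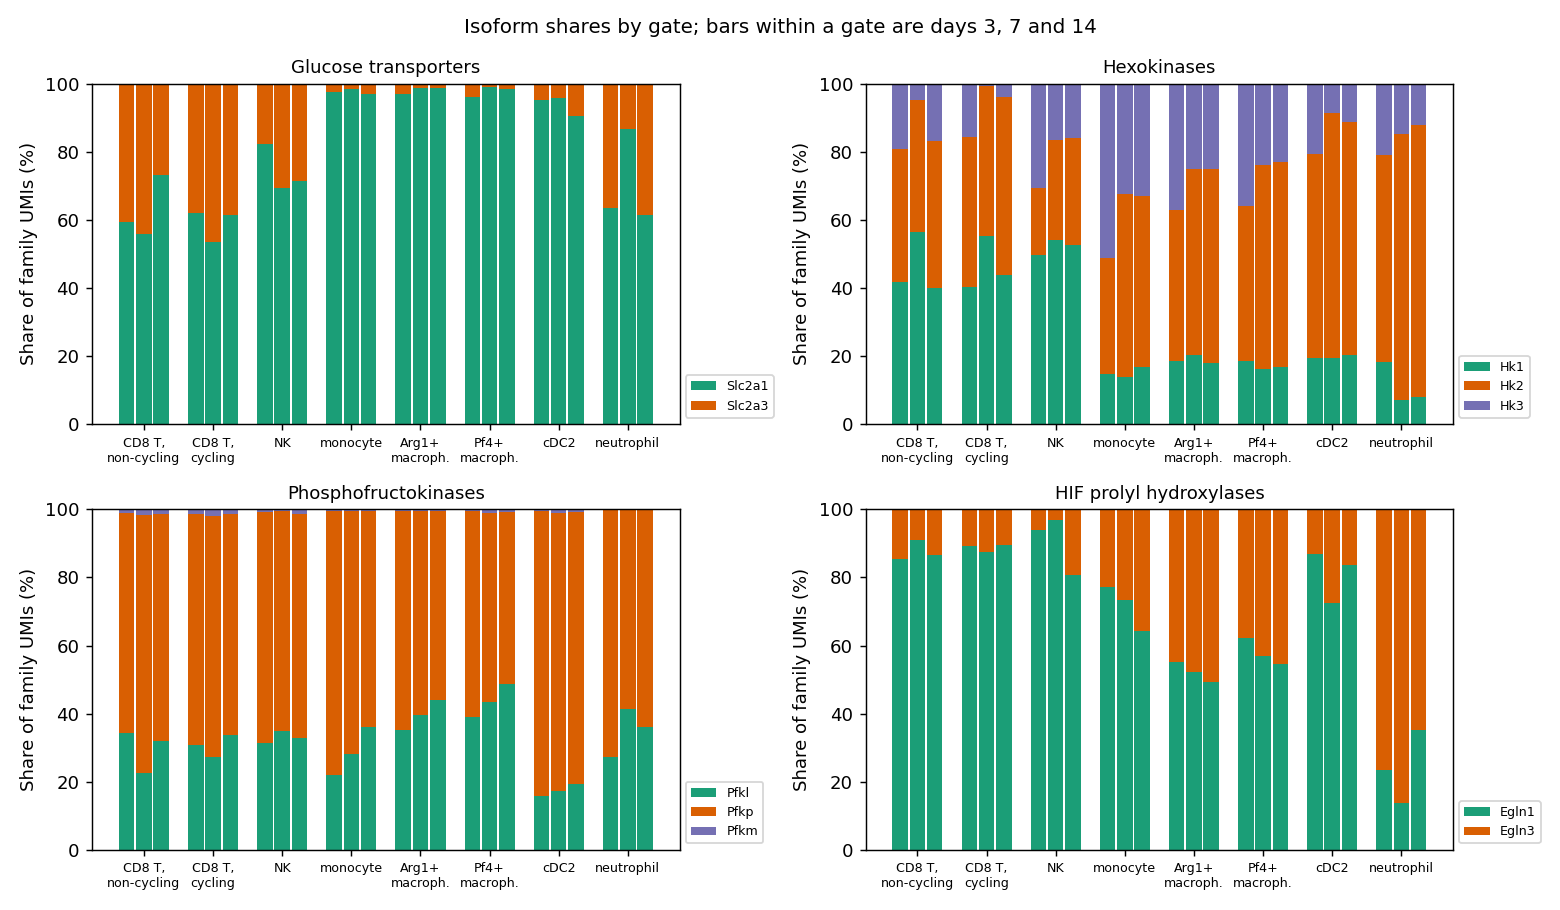
Share of each gene in the UMIs of its family (percent, y axis, stacked) by gate and day for glucose transporters, hexokinases, phosphofructokinases and Egln genes. The Slc2a3 share is 36.4, 13.3 and 38.6% in neutrophils and 2.43, 1.67 and 3.06% in monocytes, and the Hk1 share is 41.8, 56.5 and 40% in non-cycling CD8 T cells.

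Vegfa, the main growth factor of blood vessels, was higher in NK cells than in the CD8 gates and cDC2 of each library. It was at 199, 186 and 135 CPM in NK cells, 250.3, 481 and 377 in Arg1 macrophages, 189, 428 and 157 in neutrophils and 133, 184 and 175 in monocytes. In cDC2 it was at 44.7, 72.2 and 47.3 CPM, below the NK cells of each library. Non-cycling and cycling CD8 T cells had 15.2, 9.05 and 29.5 and 9.67, 10.01 and 12 CPM, below the NK cells of the same library at every day. A Vegfa UMI was found in 54.8, 56.4 and 38.6% of NK cells, at median depths of 4920, 5984 and 5607 UMIs, and in 8.04, 4.30 and 7.11% of non-cycling CD8 T cells, at 9280, 9510 and 8159 UMIs. With each cell thinned to 1000 UMIs, which every gated cell has, the shares were 17.3, 15.7 and 12.03% and 1.01, 0 and 2.09%. NK cells without a UMI of Gzmc, a granzyme, had 211, 204 and 148 CPM of Vegfa, and those with at least 3 had 114, 136 and 104 CPM. Both subsets were above the non-cycling CD8 T cells at each day. Leaving out NK cells of several gates left the level at 197, 187 and 108 CPM.

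Differences between gates were tested over the 3 libraries with edgeR's quasi-likelihood test, on UMIs of cells that are in 1 gate only, with the library as a block. In the 6 comparisons made, 9888 genes passed the filter on low sums, and 33 members were tested, all but Pfkm. The replicates are libraries of different days, each from pooled mice. The block removes shifts that all gates of a library share. Adjusted p-values therefore weigh a difference between gates against how unevenly such differences vary over these libraries. This residual spread is pooled over all gates, and the spread between mice was not measured.

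Arg1 macrophages had more RNA of nearly the whole module than monocytes. Of 33 members, 28 were higher in Arg1 macrophages, against 9.57% of all genes tested, and 1 was lower, against 9.96%. The median log2 fold change was 1.36 over the members and -0.02 over all genes. The 9 enzymes from Gpi1 to Ldha, counted without the phosphofructokinases and Aldoc, were all higher, by 0.89 to 1.60 on the log2 scale. Pfkl and Pfkp, which are not among these 9, differed by 0.79 and 0.04. Egln3 was at 238, 346 and 271 CPM in Arg1 macrophages and 40.1, 41.8 and 38.5 CPM in monocytes (log2 fold change 2.98, SE 0.24, edgeR adjusted p = 2.52e-08). Ero1l was at 639, 1092 and 721 against 163, 147 and 148 CPM (log2 fold change 2.57, SE 0.31, edgeR adjusted p = 4.02e-06). Ndrg1 was at 445, 684 and 521 against 129.8, 100.2 and 108 CPM (log2 fold change 2.45, SE 0.19, edgeR adjusted p = 1.83e-08). For each of these 3 hypoxia genes every Arg1 value lay above every monocyte value. They were named for their large fold changes, so this is no further test. Adm had the largest fold change of the members and few UMIs, with 10.1, 23.8 and 25.7 against 0.674, 0.769 and 1.71 CPM (log2 fold change 4.42, SE 0.65, edgeR adjusted p = 9.55e-05). Pfkfb4 alone was lower, at 11.8, 5.56 and 6.15 against 17.4, 20.5 and 21.7 CPM (log2 fold change -1.26, SE 0.26, edgeR adjusted p = 0.00143), and it did not pass when the day 14 library was left out. The 4 members that missed the threshold were Slc2a3, Hk3, Pfkp and Slc16a3. On total UMIs without TMM, which moved the median of all genes by -0.14, 27 and 1 members were higher and lower, beside 7.13% and 15.5% of all genes. In the cells compared, cDC2 markers (all 6 listed genes) summed to 15508, 12918 and 10607 CPM in Arg1 macrophages and 5601, 6259 and 6607 CPM in monocytes, and macrophage markers to 2863, 1743 and 2582 and 1436, 1597 and 1705 CPM. Day 3 Arg1 cells of 1 gate also carried 3896 CPM of 4 erythroid markers, against 0 and 0.362 CPM at days 7 and 14, and the part of these markers in the result was not tested.

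The module followed the Arg1 gate also in cells that passed a second myeloid gate. The median member share was 0.943, 0.765 and 0.831% in cells of the monocyte gate only, 2.82, 2.54 and 2.59% in cells of both gates (21, 22 and 48 cells) and 3.05, 3.01 and 2.79% in cells of the Arg1 gate only. It was 2.58, 2.44 and 2.49% in cells of the Arg1 and Pf4 gates and 1.35, 1.24 and 0.995% in cells of the Pf4 gate only. Egln3 was at 40.1, 41.8 and 38.5 CPM, 137, 30.1 and 247 CPM and 238, 346 and 271 CPM in the first 3 of these sets, and at 153, 175 and 201 CPM and 18.5, 39.8 and 16.5 CPM in the last 2. The share was high in every set with Arg1 and low in both sets without it. Cells with at least 5 Arg1 UMIs were left out of both of the latter sets, so these contrasts are by Arg1 RNA. Whether Arg1 itself answers to the same conditions as the module was not tested. Median depths in the 5 sets ran from 10037 to 18286 UMIs per cell.

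Pf4 macrophages outside the Arg1 gate had less RNA of the module than Arg1 macrophages. None of 33 members was higher, against 8.32% of all genes, and 29 were lower, against 11.4%, with a median log2 fold change of -1.47 over the members and 0.01 over all genes. With edgeR 0 members were higher also at an unadjusted p under 0.05, and DESeq2 gave 0. The largest differences were again in the hypoxia response. Egln3 was at 18.5, 39.8 and 16.5 CPM in Pf4 and 238, 346 and 271 CPM in Arg1 macrophages (log2 fold change -4.06, SE 0.32, edgeR adjusted p = 1.93e-08). Ero1l was at 106, 156 and 116 against 639, 1092 and 721 CPM (log2 fold change -3.07, SE 0.34, edgeR adjusted p = 1.99e-06), and Ndrg1 at 106, 129 and 89.4 against 445, 684 and 521 CPM (log2 fold change -2.76, SE 0.21, edgeR adjusted p = 1.68e-08). Bnip3 was at 129, 103 and 86.2 against 483, 615 and 406 CPM (log2 fold change -2.60, SE 0.28, edgeR adjusted p = 1.29e-06). These 4 genes were lower in the Pf4 cells of all 3 libraries, without overlap between the classes. They were named for their large fold changes, so this is no further test. Slc2a1 and Vegfa differed by -2.57 and -2.59, and the 9 enzymes from Gpi1 to Ldha by -1.67 to -1.16. The Pf4 cells of 1 gate numbered 34, 21 and 69, and 5 cycling markers summed to 702, 9.95 and 428 CPM in them, against 113, 11.1 and 15.2 CPM in Arg1 cells. Without TMM, which moved the median of all genes by 0.33, the members higher and lower were 1 and 28, beside 24.1% and 6.04% of all genes.

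Neutrophils had more of 27 of 33 members than monocytes, but by a margin that depends on the scale. Of all genes 18.3% were higher and 26.8% lower, and the median log2 fold change was 1.06 over the members and -0.55 over all genes. No member was lower with edgeR, 0 at an unadjusted p under 0.05 and 0 with DESeq2. On total UMIs without TMM, which moved the median of all genes by -0.48, 16 and 2 members were higher and lower, beside 12.8% and 40.4% of all genes, and the log2 fold changes of Eno1, Gapdh and Pkm turned to -0.13, -0.04 and -0.09. Slc2a3 was at 224, 113 and 348 CPM in neutrophils and 2.19, 4.35 and 4.28 CPM in monocytes (log2 fold change 6.57, SE 0.40, edgeR adjusted p = 2.21e-11). Egln3 was at 346, 554 and 293 against 40.1, 41.8 and 38.5 CPM (log2 fold change 3.75, SE 0.27, edgeR adjusted p = 2.04e-10), and Ero1l at 405, 650.1 and 827 against 163, 147 and 148 CPM (log2 fold change 2.56, SE 0.32, edgeR adjusted p = 9.65e-07). Both hypoxia genes were higher in neutrophils of all 3 libraries. Adm was at 46.5, 0 and 2.74 against 0.674, 0.769 and 1.71 CPM (log2 fold change 4.29, SE 1.04, edgeR adjusted p = 0.00249), a value that rests on 11 UMIs of day 3 neutrophils with 0 at day 7. Bnip3l, Hk2, Bnip3 and Slc16a3 followed with 2.44, 2.22, 2.04 and 1.95. Neutrophil sums are the shallowest, with 322107, 284932 and 452681 UMIs and median depths of 2218, 2444 and 2340.0 UMIs per cell. Without the day 14 library 14 members were higher and 1 lower, and without day 7 18 were higher.

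cDC2 had less of 19 members than monocytes and more of 1, the aldolase Aldoc. Of 33 members 19 were lower, against 16% of all genes, and 1 was higher, against 12.5%, with a median log2 fold change of -0.57 over the members and -0.06 over all genes. Aldoc was at 47.8, 52.8 and 72.3 CPM in cDC2 and 7.42, 8.20 and 11.7 CPM in monocytes (log2 fold change 2.60, SE 0.31, edgeR adjusted p = 1.68e-06), while Aldoa differed by -0.34. Hk3 was at 46.1, 18.6 and 21.5 against 251, 122 and 106 CPM (log2 fold change -2.53, SE 0.38, edgeR adjusted p = 2.63e-05), and Pfkfb3 at 16.8, 13.98 and 6.95 against 56.98, 53.03 and 50.8 CPM (log2 fold change -2.19, SE 0.31, edgeR adjusted p = 1.65e-05). Vegfa was at 36.9, 66.8 and 45.9 against 133, 181 and 121 CPM (log2 fold change -1.62, SE 0.32, edgeR adjusted p = 0.000539). These 4 genes were named for their large fold changes. That their classes did not overlap is no further test. The other 13 did not pass, among them Pfkp, the leading phosphofructokinase, which was higher in cDC2 of all 3 libraries, by 0.35 (edgeR adjusted p = 0.143). The members lower numbered 12 without day 14, the members higher 2 without day 3. Without TMM the counts higher and lower were 2 and 15, beside 14.5% and 13.8% of all genes.

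**Figure D4:**
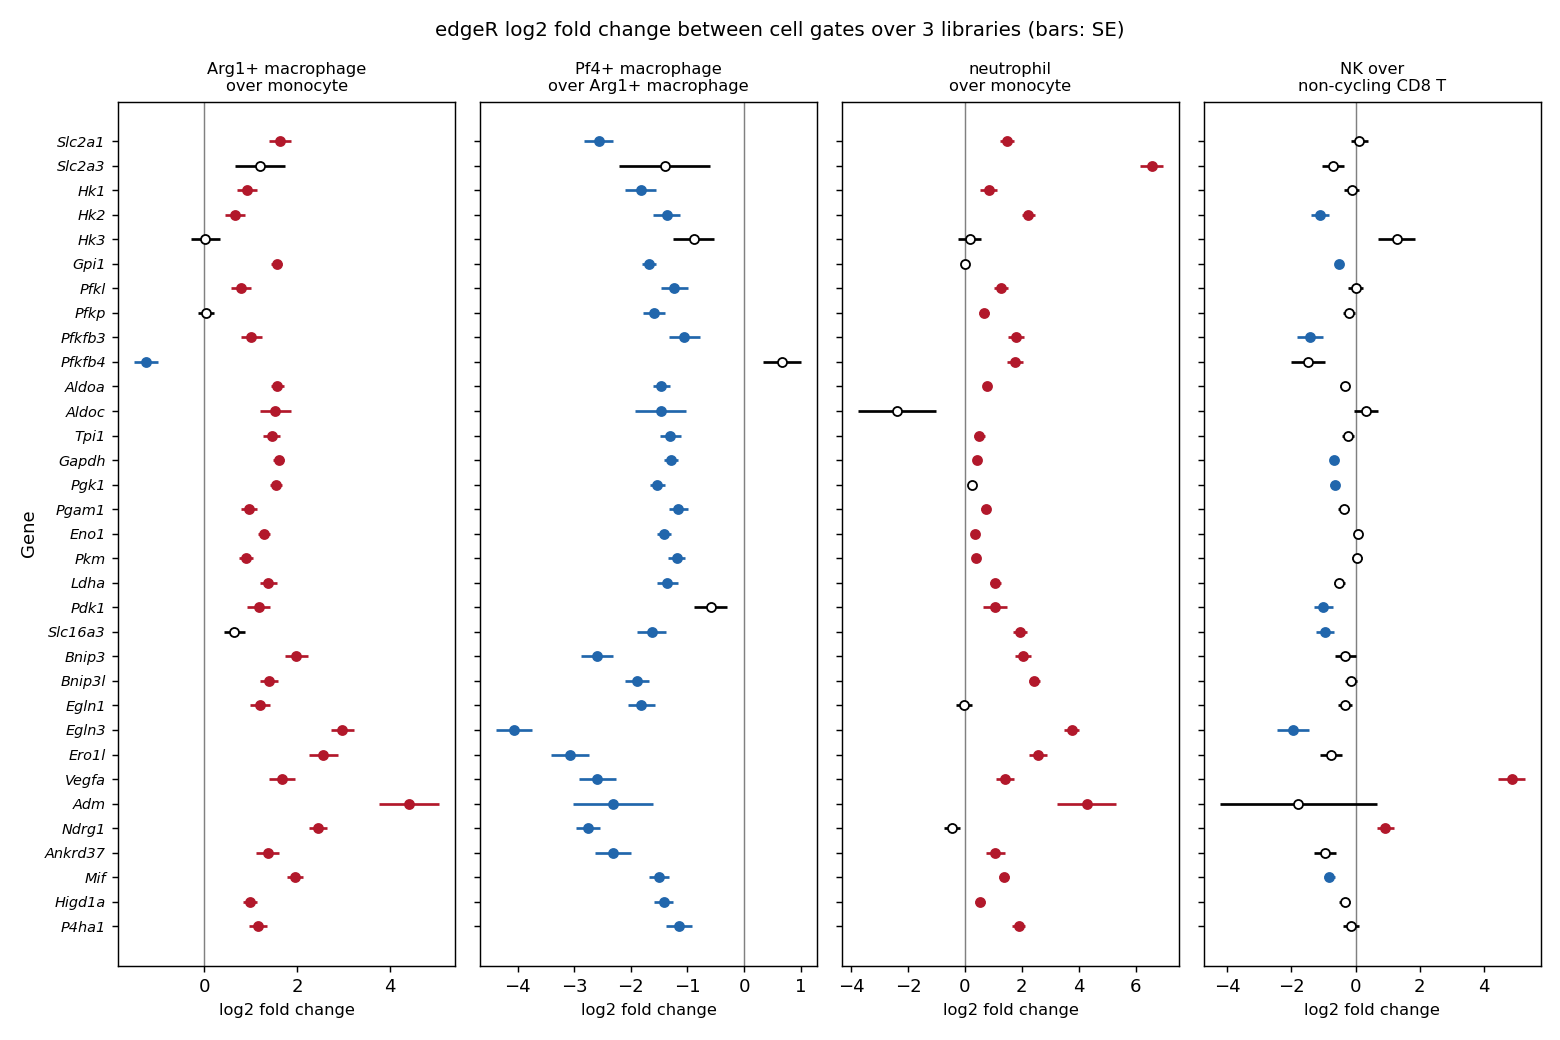
Log2 fold change (x axis) of the 33 tested members in 4 comparisons of gates, with bars of 1 SE. Red points are higher and blue points lower at an edgeR adjusted p under 0.05, and open points are neither; 28 points are red for Arg1 macrophages over monocytes and 29 blue for Pf4 over Arg1 macrophages.

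Cycling CD8 T cells had more RNA of the lower glycolytic path than non-cycling ones. The 2 gates are set by raw Mki67 plus Top2a UMIs and differ in depth. Median depths in the whole gates were 31670, 30158 and 31275 UMIs per cycling cell against 9280, 9510 and 8159. The part of depth in the result was not tested. Of 33 members 8 were higher, against 13.4% of all genes, and 1 was lower, against 16.4%. The 8 were Tpi1, Ldha, Pgk1, Gapdh, Pgam1, Pkm, Mif and Eno1, by 0.48 to 0.83 on the log2 scale, so 7 are enzymes between triose phosphate and lactate. Tpi1, the triose phosphate isomerase, was at 881, 629 and 701 CPM in cycling and 489, 313 and 333 CPM in non-cycling cells (log2 fold change 0.83, SE 0.18, edgeR adjusted p = 0.00142). Ldha was at 1917, 1498 and 1524 against 1173, 759 and 707 CPM (log2 fold change 0.78, SE 0.18, edgeR adjusted p = 0.00255), and Pgk1, the first ATP-making kinase of the path, at 785, 686 and 735 against 502, 401 and 389.9 CPM (log2 fold change 0.64, SE 0.13, edgeR adjusted p = 0.000655). All 3 were higher in the cycling cells of every library. Bnip3l, a mitophagy receptor, was at 106, 112 and 110.4 against 149, 176 and 138 CPM (log2 fold change -0.63, SE 0.19, edgeR adjusted p = 0.0146), the 1 member that was lower. Slc2a1, Hk2 and Pfkp, which act before the triose step, differed by 0.09, 0.44 and 0.08 and did not pass. The median over the members was 0.09 and over all genes -0.10. With barcodes shared between libraries left out 6 members were higher and 0 lower. The number higher was 5 without day 7 and 4 without day 14, with 0 lower in both. Without TMM, which moved the median of all genes by 0.13, the counts higher and lower were 10 and 0, beside 17.95% and 11.2% of all genes.

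NK cells differed from non-cycling CD8 T cells by high Vegfa and by less of several members. Of 33 members 2 were higher, against 7.11% of all genes, and 9 were lower, against 9.47%, with medians of -0.34 over the members and -0.05 over all genes. Vegfa was at 197, 187 and 108 CPM in NK and 7.56, 3.70 and 4.22 CPM in non-cycling CD8 T cells (log2 fold change 4.87, SE 0.42, edgeR adjusted p = 2.41e-08), higher in all 3 libraries. Ndrg1 was the other, with a log2 fold change of 0.93. Egln3 was at 6.76, 2.13 and 4.29 against 22.2, 9.25 and 8.45 CPM (log2 fold change -1.96, SE 0.49, edgeR adjusted p = 0.00821), and Pfkfb3 at 9.29, 4.98 and 5.15 against 18.7, 11.1 and 14.5 CPM (log2 fold change -1.42, SE 0.41, edgeR adjusted p = 0.0196). Hk2 was at 14.4, 24.2 and 16.3 against 41.9, 26.3 and 40.4 CPM (log2 fold change -1.11, SE 0.29, edgeR adjusted p = 0.0101). Gapdh, Pgk1 and Gpi1 were lower by smaller amounts, -0.67, -0.65 and -0.50. The count lower rests on the libraries used: 6 without day 3, 5 without day 7 and 1 without day 14, and 1 was higher without day 14. Without TMM, which moved the median of all genes by 0.16, the counts higher and lower were 2 and 7, beside 11.1% and 5.47% of all genes.

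Other genes of these pathways, in 4 lists of 44 genes in all, were counted in the same fit, beside the shares of all genes given above. Between Arg1 macrophages and monocytes 11 of 12 tested other hypoxia targets were higher. They were led by P4ha2, a collagen prolyl hydroxylase (log2 fold change 3.24, SE 0.64, edgeR adjusted p = 0.00112), Plod2, a lysyl hydroxylase (log2 fold change 2.63, SE 0.64, edgeR adjusted p = 0.00601), Ddit4, an inhibitor of mTOR (log2 fold change 2.50, SE 0.28, edgeR adjusted p = 1.42e-06), and Mxi1, a partner of Max (log2 fold change 2.17, SE 0.23, edgeR adjusted p = 6.24e-07). Between Pf4 and Arg1 macrophages 11 of 12 were lower, and Plod1 was higher (log2 fold change 1.01, SE 0.33, edgeR adjusted p = 0.0317). Of 7 HIF regulators only Cited2, an antagonist of HIF, passed between Arg1 macrophages and monocytes (log2 fold change 0.97, SE 0.26, edgeR adjusted p = 0.00971), and Hif1a itself differed by 0.03 (edgeR adjusted p = 0.975). Between Pf4 and Arg1 macrophages Vhl, Hif1a and Cited2 were lower, Hif1a by -1.12. Of 11 other glycolysis and pyruvate genes 1, Pgm1, was higher in Arg1 macrophages than in monocytes and 2, Ldhb and Mpc2, were lower. Of 7 pentose phosphate genes 2, G6pdx and Taldo1, were lower, and none passed between Pf4 and Arg1 macrophages. In neutrophils against monocytes (18.3% of all genes higher and 26.8% lower), 7 of 12 other hypoxia targets were higher and 0 lower. Of 11 other glycolysis and pyruvate genes 1 was higher and 5 lower, among them Ldhb, and Pdha1 and Pdhb of pyruvate dehydrogenase. Of 7 pentose phosphate genes Taldo1 and Pgd were higher and 4 lower, and of 7 HIF regulators Cited2 and Arnt were higher. In cycling against non-cycling CD8 T cells (13.4% of all genes higher and 16.4% lower), Tkt and Pgd were higher of 7 pentose phosphate genes. Of 12 other hypoxia targets Sap30 and Fam162a were higher and Pygl lower, a share near that of all genes, and Hif1an was lower and Eno3 higher. In NK against non-cycling CD8 T cells (7.11% of all genes higher and 9.47% lower), Plod2 and Ccng2 were higher and Mxi1 and Fam162a lower of 12 other hypoxia targets, Ldhb, Slc16a1 and Eno3 were lower of 11 other glycolysis and pyruvate genes, and Epas1 was lower. In cDC2 against monocytes (12.5% of all genes higher and 16% lower), 4 of 7 HIF regulators were lower, among them Hif1a. Of 12 other hypoxia targets 6 were lower and Ddit4 was higher, and 3 of 11 other glycolysis and pyruvate genes and 3 of 7 pentose phosphate genes were lower.

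Differences between days have no replicate, since each day is 1 library, and were not tested. A member was counted as higher or lower where its CPM differed by at least 1.5-fold with an interval that excludes 1, on at least 20 UMIs over both libraries. The same rule over all genes measured in the gate gives the background printed beside each count. Both comparisons, day 7 over day 3 and day 14 over day 7, use the day 7 library.

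Summed over non-cycling CD8 T cells, 14 members were lower at day 7 than at day 3, while the median share of the module per cell was 0.655 and 0.643%, and the share in summed UMIs 1.07 and 0.864%. The medians in cells of 1 gate were 0.632 and 0.637%. By the rule, 0 of 32 measured members were higher (6.92% of all genes) and 14 lower (14.5%), and the median log2 ratio was -0.59 over the members and -0.06 over all genes. Bnip3 was at 67.3, 24.2 and 28.7 CPM and 2.78-fold lower at day 7 than at day 3 (2.07 to 3.75). Ero1l was at 113, 45.2 and 72.5 CPM, 2.49-fold lower (2.01 to 3.11), and Pfkl at 120.3, 53.6 and 90.5 CPM, 2.25-fold lower (1.83 to 2.76). Day 3 was the highest of the 3 libraries for each of these genes. Hk3, at 25.8, 3.98 and 20.1 CPM, was 6.49-fold lower at day 7 than at day 3 (3.38 to 13.7). Ldha was 1.54-fold lower (1.46 to 1.63) and Tpi1 1.57-fold lower (1.44 to 1.71), while Gapdh had a log2 ratio of 0.00. With cells of several gates left out the same 14 members were lower, and with the mean over cells of the CPM per cell 8 were past 1.5-fold. Macrophage markers differed as well, 489, 98.1 and 347 CPM in the whole gate and 80.2, 33.3 and 60.99 CPM in cells of 1 gate. At day 14 over day 7, 7 of 31 measured members were higher (5.77% of all genes) and 1 lower (4.67%). This second count rests on cells that also passed another gate. Vegfa was at 15.2, 9.05 and 29.5 CPM, 3.26-fold higher at day 14 than at day 7 (2.04 to 5.36), but its log2 ratio was 0.19 among cells of 1 gate, against 1.70. Ndrg1, at 28.4, 16.3 and 42.6 CPM, had 1.39 and 0.30, and Hk3 2.33 and 0.34. Slc2a3, at 49.97, 41.97 and 23.3 CPM, was 1.80-fold lower at day 14 than at day 7 (1.30 to 2.51), and -0.72 on the log2 scale among cells of 1 gate. In those cells 2 members were higher, Hk2 and Pfkl, and 2 lower, Slc2a3 and Bnip3, named after their values were seen.

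Cycling CD8 T cells had a median share of the module of 1.42% at day 3 and 1.15% at day 7, when 0 of 33 measured members were higher (5.39% of all genes) and 9 lower (10.1%), with a median log2 ratio of -0.41 over the members and -0.09 over all genes. Slc16a3 was at 119, 53.3 and 64.1 CPM and 2.23-fold lower at day 7 than at day 3 (1.92 to 2.59). Bnip3 was at 46.02, 22.9 and 25.97 CPM, 2.01-fold lower (1.60 to 2.55), and Slc2a1 at 92.4, 48.5 and 55.9 CPM, 1.90-fold lower (1.62 to 2.24). Hk3 was at 24, 0.653 and 5.02 CPM with 3 UMIs at day 7, 36.7-fold lower at day 7 than at day 3 (12.3 to 180.4), and in cells of 1 gate at 15.1, 0.452 and 1.93 CPM. Without the barcodes shared between libraries, Slc2a1 had a log2 ratio of -0.58 against -0.93, Bnip3 of -1.05 against -1.01, and Hk3 was at 15.2, 0 and 4.31 CPM. Between days 7 and 14, 2 of 32 measured members were higher at day 14 (4.89% of all genes) and 1 lower (4.06%), shares near those of all genes. Macrophage markers summed to 367, 41.8 and 458 CPM in this gate, and their part was not tested. The members past the rule were Hk3, Ankrd37, at 31.7, 18.1 and 29.5 CPM and 1.63-fold higher at day 14 than at day 7 (1.23 to 2.17), and Aldoc, at 6.63, 10.2 and 5.24 CPM and 1.95-fold lower (1.17 to 3.34).

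NK cells had few members past the rule between days 3 and 7, though most ratios were below 1. By the rule 1 of 30 measured members was higher (3.27% of all genes) and 3 lower (5.1%). The median log2 ratio was -0.27 over the members and -0.02 over all genes, and 24 of the 30 ratios were below 1. Aldoc was at 7.24, 19.6 and 15.5 CPM and 2.71-fold higher at day 7 than at day 3 (1.33 to 6.23), and Slc16a3 at 66.8, 33.4 and 26.9 CPM and 2.00-fold lower (1.47 to 2.71). Hk3, at 32.2, 14.5 and 15.5 CPM, was 2.22-fold lower (1.41 to 3.51), but had a log2 ratio of -0.25 among cells of 1 gate. Ero1l, at 57.9, 37.5 and 72.6 CPM, was 1.54-fold lower (1.13 to 2.10). Among cells of 1 gate it was at 52.4 and 36.6 CPM at days 3 and 7 and not past the rule. At day 14 over day 7, 4 of 31 measured members were higher (3.5% of all genes) and 0 lower (5.48%). Egln3 was at 7.24, 2.76 and 21.2 CPM, Ankrd37 at 8.04, 13.4 and 30.98, Ndrg1 at 40.2, 39.95 and 82.4 and Ero1l at 57.9, 37.5 and 72.6, with log2 ratios of 2.94, 1.21, 1.04 and 0.95. None of these 4 was past the rule in cells of 1 gate, where the log2 ratios were 1.01, 0.63, 0.37 and 0.08. These values leave out the 4 NK cells of day 14 that passed another gate. In cells of 1 gate 3 members were lower instead, Slc16a3, Bnip3l and Vegfa, named after their values were seen.

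In monocytes only Hk3 and Pfkp were past the rule at day 7 over day 3, a share of the members no larger than that of all genes. There 0 of 33 measured members were higher (5.64% of all genes) and 2 lower (7.55%). The members lower are 6.06% of those measured. Hk3 was at 237, 127 and 118 CPM and 1.87-fold lower at day 7 than at day 3 (1.70 to 2.05), and Pfkp at 531, 298 and 247 CPM and 1.78-fold lower (1.67 to 1.89). Day 14 was close to day 7, and both were past the rule also in cells of 1 gate. Between days 7 and 14, 4 of 33 measured members were higher at day 14 (5.13% of all genes) and 0 lower (4.8%), and none in cells of 1 gate. Adm was at 0.684, 0.652 and 8.57 CPM, Slc2a3 at 6.98, 4.57 and 8.97, Egln3 at 42.96, 44.6 and 80.1 and Ankrd37 at 58.3, 54.6 and 82.5. Their log2 ratios were 3.72, 0.97, 0.85 and 0.60 in the whole gate and 1.16, -0.03, -0.12 and 0.25 in cells of 1 gate. Monocytes that passed another gate numbered 56, 43 and 80, and neutrophil markers summed to 187, 184 and 845 CPM in the whole gate and 126, 108 and 117 CPM without them.

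In Arg1 macrophages 5 of the 12 genes of the hypoxia response, with Slc2a1 and Pfkfb3, were higher at day 7 than at day 3. By the rule 7 of 33 measured members were higher (5.34% of all genes) and 0 lower (14.2%), with a median log2 ratio of 0.20 over the members and -0.16 over all genes. Vegfa was at 250.3, 481 and 377 CPM and 1.92-fold higher at day 7 than at day 3 (1.76 to 2.10). Pfkfb3 was at 60.4, 112 and 78.9 CPM, 1.86-fold higher (1.55 to 2.24), and Slc2a1 at 405, 749.5 and 592 CPM, 1.85-fold higher (1.72 to 1.98). Adm, at 3.91, 17.3 and 30.7 CPM, was 4.43-fold higher (2.36 to 8.79). Ndrg1, Ero1l and Egln3 were the others, with log2 ratios of 0.86, 0.83 and 0.66. All but Egln3 were past the rule also in cells of 1 gate, where Hk3 and Pdk1 were lower. With the mean over cells of the CPM per cell 3 were past 1.5-fold. At day 14 over day 7, 2 of 33 measured members were higher (5.91% of all genes) and 0 lower (6.7%): Adm, 1.77-fold higher (1.27 to 2.53), and Ankrd37, at 84.2, 98.5 and 150.5 CPM and 1.53-fold higher (1.33 to 1.77). These 2 are 6.06% of the members measured, near the share of all genes. In cells of 1 gate 1 was higher, Aldoc, and 5 lower, Slc2a3, Hk1, Pfkfb3, Bnip3 and Ero1l, named after their values were seen. Markers of other cells differed between the libraries as well. Erythroid markers summed to 1289.7, 0.423 and 0.397 CPM in the whole gate, CD8 T markers to 929, 296 and 246 CPM and macrophage markers to 4006, 2515 and 3838 CPM, and their part was not tested. The Arg1 gate shared 87, 51 and 222 cells with the Pf4 gate.

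The Pf4 gate, most of whose cells are also in the Arg1 gate, had more Vegfa at day 7 than at day 3. By the rule 5 of 33 measured members were higher (6.03% of all genes) and 1 lower (11.2%) at day 7 over day 3. Vegfa was at 166, 377 and 267 CPM and 2.27-fold higher at day 7 than at day 3 (1.98 to 2.60), and in cells of 1 gate at 31.7, 182 and 83.1 CPM. Adm was at 2.22, 13.5 and 25.8 CPM, 6.07-fold higher (2.23 to 19.1), Ndrg1 at 225, 423 and 287 CPM, 1.88-fold higher (1.66 to 2.13), and Slc2a1 at 281, 524 and 397 CPM, 1.86-fold higher (1.67 to 2.08). Adm in cells of 1 gate was at 5.28, 0 and 7.06 CPM, from 4, 0 and 9 UMIs. The cDC2 markers summed to 5629.7, 10621 and 6672 CPM in the whole gate, and their part was not tested. The log2 ratio of Slc2a1 turned to -0.43 in cells of 1 gate, and that of Ndrg1 was 0.29 against 0.91. Between days 7 and 14, 2 of 33 measured members were higher at day 14 (6.01% of all genes) and 0 lower (7.6%): Adm, 1.91-fold higher (1.12 to 3.51), and Ankrd37, at 58.5, 62.03 and 94.5 CPM and 1.52-fold higher (1.18 to 1.99), whose log2 ratio turned from 0.61 to -0.46. These 2 are 6.06% of the members measured, near the share of all genes. In cells of 1 gate 6 members were lower and none higher at day 14 over day 7, among 21 and 69 cells.

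cDC2 differed in few members. At day 7 over day 3, 3 of 31 measured members were higher (4.26% of all genes) and 2 lower (3.25%). Egln3 was at 11.6, 30.7 and 15.2 CPM and 2.66-fold higher at day 7 than at day 3 (1.46 to 5.12), Ankrd37 at 50.1, 29.4 and 47.8 CPM and 1.70-fold lower (1.14 to 2.56), and Bnip3l at 65.5, 107 and 95.7 CPM and 1.63-fold higher (1.25 to 2.15). Hk3, at 47.8, 20.7 and 23.9 CPM, was 2.31-fold lower (1.48 to 3.68), the direction it had in monocytes and CD8 T cells. At day 14 over day 7, 1 of 32 measured members was higher (5.52% of all genes) and 6 lower (5.68%). Bnip3, at 82.5, 104 and 47.8 CPM, was 2.18-fold lower at day 14 than at day 7 (1.66 to 2.88), and Pfkfb3, at 17.7, 22.05 and 10.5 CPM, 2.10-fold lower (1.15 to 3.96). Egln3 was 2.03-fold lower (1.23 to 3.41) and Ankrd37 1.63-fold higher (1.12 to 2.40), so day 7 stood apart for these 2 genes in the whole gate. In cells of 1 gate Egln3 was at 10.9, 20.2 and 14.6 CPM and past the rule in neither comparison. Ankrd37 was at 47.8, 25.6 and 50.04 CPM in them. In cells of 1 gate 3 members were past the rule at day 14 over day 7, Ankrd37 higher and Bnip3 and Ero1l lower.

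In neutrophils, Slc2a1, Hk2 and genes of the hypoxia response were among the members higher at day 7 than at day 3, while Slc2a3 was lower. At day 7 over day 3, 9 of 31 measured members were higher (9.53% of all genes) and 1 lower (11.9%). Pdk1 was at 18.6, 56.2 and 17.7 CPM and 3.01-fold higher at day 7 than at day 3 (1.12 to 9.41), Pfkfb3 at 62.1, 154 and 128 CPM and 2.49-fold higher (1.44 to 4.45), and Vegfa at 189, 428 and 157 CPM and 2.26-fold higher (1.65 to 3.13). Ndrg1, at 68.3, 154 and 135 CPM, was 2.26-fold higher (1.33 to 3.96), but turned to a log2 ratio of -0.49 in cells of 1 gate. Hk2, Ero1l, Slc2a1, Egln3 and Pfkl were higher as well, by 0.81 to 0.98 on the log2 scale, and Slc2a3, at 183, 94.8 and 298 CPM, was 1.93-fold lower (1.21 to 3.17). Between days 7 and 14, 3 of 31 measured members were higher at day 14 (8.01% of all genes) and 5 lower (10.6%). These are 9.68% and 16.1% of the members, the first near the share of all genes. Pdk1 was 3.18-fold lower (1.28 to 8.58), Vegfa 2.73-fold lower (2.02 to 3.71) and Slc2a3 3.15-fold higher (2.07 to 4.95), so day 7 stood apart from days 3 and 14 for these 3 genes. P4ha1, at 130.4, 123 and 258 CPM, was 2.10-fold higher (1.43 to 3.16). In cells of 1 gate the day 14 over day 7 counts were 3 higher and 5 lower, the same 8 members. Summed neutrophil markers differed as well, 44411, 41631 and 75192 CPM for 7 genes, and their part in the result was not tested.

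**Figure D5:**
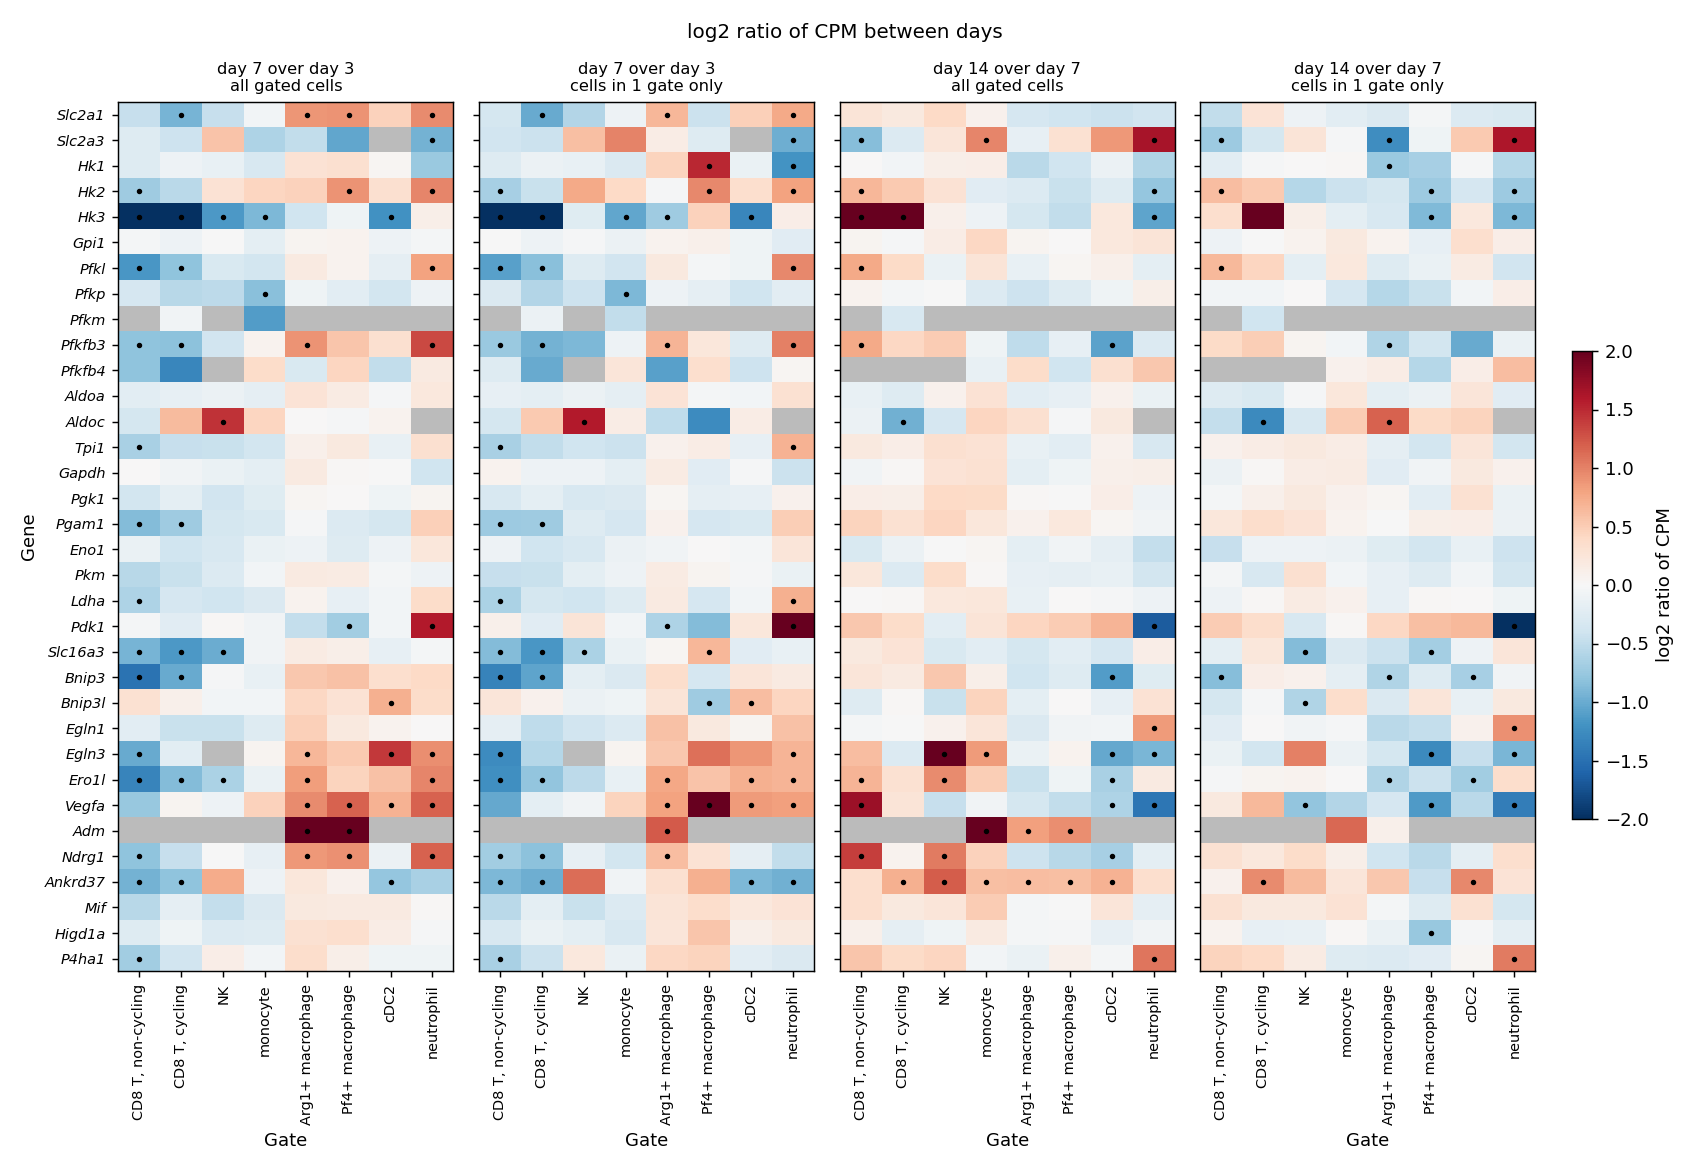
Log2 ratio of CPM for each member (rows) in the 8 gates (columns), day 7 over day 3 and day 14 over day 7, for all gated cells and for cells in 1 gate only. Dots mark ratios past the size rule, judged in each panel on that panel's cells, and grey cells were not measured; the 14 dots of non-cycling CD8 T cells at day 7 over day 3 are all lower, and the 4 monocyte dots at day 14 over day 7 are absent in cells of 1 gate.

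Among the other pathway genes, Ddit4 was past the rule and higher at day 7 than at day 3 in all 8 gates. It was at 13.6, 40.5 and 37.3 CPM in non-cycling CD8 T cells, 7.94, 15.2 and 15.5 in monocytes, 21.8, 78.2 and 44.5 in Arg1 macrophages and 31.05, 70.2 and 72.9 in neutrophils. The other hypoxia targets counted higher or lower at day 7 over day 3 were 5 and 2 of 12 in Arg1 macrophages (beside 5.34% and 14.2% of all genes) and 1 and 3 of 11 in non-cycling CD8 T cells (beside 6.92% and 14.5%). At day 14 over day 7 they were 0 and 2 of 12 in Arg1 macrophages (beside 5.91% and 6.7%). Pentose phosphate genes were past the rule at most once in any gate and comparison.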

How the data were processed

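The 3 libraries of CD45+ tumour cells, 1 per day, were deposited as UMI counts by gene and barcode. The submitters' processing notes name Cell Ranger 4.0.0 and the mm10 genome. Neither an annotation release nor a doublet step is stated in the sources used here, and no doublet caller was run. Barcodes with at least 1500 UMIs (1000 for neutrophils) were placed in 8 gates by marker UMIs. The CD8 T gates ask for at least 2 Cd8a plus Cd8b1 and 1 Cd3e plus Cd3d UMIs, with 0 (non-cycling) or at least 3 (cycling) Mki67 plus Top2a UMIs, NK cells for at least 2 Ncr1 plus Klrb1c UMIs without Cd3d or Cd3e, monocytes for at least 3 Ly6c2 and 3 Chil3 UMIs, macrophages for at least 5 Arg1 or 5 Pf4 UMIs, cDC2 for at least 2 Cd209a UMIs and neutrophils for at least 20 S100a8 plus S100a9 UMIs. A cell may be in several gates. The gates are the classes named here, and no clustering was done.

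UMIs were summed per gate and library. CPM has exact Poisson intervals, ratios exact conditional intervals and isoform shares exact Clopper-Pearson intervals, at 95%. Gates were compared with edgeR 4.0.16 in R 4.3.3 (TMM, filterByExpr, quasi-likelihood test, 24 sums, 14 residual degrees of freedom, Benjamini-Hochberg over 9888 genes, threshold 0.05) on cells of 1 gate only. The scripts were tested on simulated data. DESeq2 1.42.0 was an alternative, as were no filter, no block, a fit of 2 classes, leaving out each library, shared barcodes or shallow cells, and, chosen after seeing the data, no TMM and exclusive gates without shared barcodes. For days, alternatives were exclusive gates, other scales, 100 UMIs, per-cell means and leaving out the top cell. Members given with values in every library are those of 7 isoform families, where they have at least 20 UMIs, and in each comparison up to 4 with the largest absolute log2 ratio past the rule or threshold; genes of the other lists follow the same order. The members, gates and lists were chosen with earlier results of these data known.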

Additional observations from a re-analysis of the deposited data

Results flagged for a closer look

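Several members were past the size rule in opposite directions in different gates of the same 2 libraries, in all gated cells and in cells of 1 gate. With 1 library per day, the difference between gates was not tested. At day 7 over day 3, Slc2a1 had log2 ratios of 0.89 in Arg1 macrophages, 0.95 in neutrophils and -0.93 in cycling CD8 T cells. Without barcodes shared between libraries its ratio in cycling CD8 T cells kept its direction but was not past the rule. Hk2 had 0.90 in Pf4 macrophages, 0.98 in neutrophils and -0.71 in non-cycling CD8 T cells. Pfkl had 0.81 in neutrophils, -1.17 in non-cycling and -0.80 in cycling CD8 T cells. Pfkfb3 had 0.90 in Arg1 macrophages and 1.31 in neutrophils, against -0.81 and -0.82 in non-cycling and cycling CD8 T cells. Ero1l had 0.83 and 0.98 in the same myeloid gates, against -1.32 and -0.87. Egln3 had 0.94 in neutrophils and -1.0 in non-cycling CD8 T cells, and Ndrg1 had 0.86 in Arg1 macrophages and -0.80 in non-cycling CD8 T cells. For these 7 members the myeloid gates named were higher and the CD8 gates lower at day 7. They were picked for passing in opposite directions, and the pattern does not cover every myeloid gate. Over all measured members, monocytes had 27 of 33 ratios below 1 and 0 past the rule as higher. In cDC2 18 of 31 ratios were below 1. At day 14 over day 7, Slc2a3 had 1.65 in neutrophils and -0.85 in non-cycling CD8 T cells, and Hk2 had -0.77 and 0.67 in these gates.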

How the results depend on the processing

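Of 264 recomputed counts of members, 218 stayed within 1.5 times the reported count and 46 did not; except where the construction shows it (fewer cells, genes or libraries), the cause was not tested. Of the member fold changes between gates, 1102 kept their direction and side of the threshold, 143 lost the call and 4 turned. Of the day ratios 11 turned. With cells of several gates left out, the day 14 over day 7 count of members past the size rule was 4 in non-cycling CD8 T cells, 0 in monocytes, 6 in Arg1 and 6 in Pf4 macrophages and 3 in cDC2, and the day 7 over day 3 count 2 in NK cells. With shared barcodes left out as well the day 14 counts were 3, 0, 5 and 4 in the first 4 of these gates. With shared barcodes alone left out, 5 were past the rule in non-cycling CD8 T cells at day 14 over day 7, 0 members were lower in cycling than in non-cycling CD8 T cells and 1 lower in neutrophils than in monocytes.

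Log2 ratios that turned in cells of 1 gate were those of Ero1l in non-cycling CD8 T cells at day 14 over day 7 (-0.022), Slc2a3 and Egln3 in monocytes at day 14 over day 7 (-0.025 and -0.12, or -0.26 and -0.094 also without shared barcodes), Slc2a1 in Pf4 macrophages at day 7 over day 3 (-0.43 and -1.10), Ankrd37 there at day 14 over day 7 (-0.46 and -0.12) and Ndrg1 in neutrophils at day 7 over day 3 (-0.49 in both). With at least 100 UMIs per gene the counts at day 7 over day 3 were 2 in NK cells, 3 in cDC2 and 6 in neutrophils, and at day 14 over day 7 5 in non-cycling and 1 in cycling CD8 T cells, 2 in NK cells, 2 in monocytes and 5 in neutrophils. By the mean over cells, day 7 over day 3 gave 8 in non-cycling CD8 T cells, 2 in NK cells and 3 in Arg1 macrophages, and day 14 over day 7 gave 4 in Pf4 macrophages. Without the top cell of each gene monocytes had 2 at day 14 over day 7.

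Between gates, leaving out each library gave 4 to 8 members higher and 0 to 1 lower in cycling than in non-cycling CD8 T cells, 1 to 3 and 1 to 6 in NK cells, 23 to 28 and 0 to 1 in Arg1 macrophages over monocytes, 0 and 25 to 29 in Pf4 over Arg1 macrophages, 14 to 20 and 0 to 1 in neutrophils, and 1 to 2 and 12 to 16 in cDC2. Without day 7 the Pdk1 log2 fold change of neutrophils over monocytes turned to -0.13, within a range up to 1.25 over the libraries left out. On total UMIs without TMM, 0 were lower in cycling CD8 T cells, 1 higher in Pf4 than in Arg1 macrophages, 16 higher and 2 lower in neutrophils, 2 higher in cDC2, and Eno1, Gapdh and Pkm turned to -0.13, -0.044 and -0.094 in neutrophils. A fit of the 2 classes alone gave 2 lower in cycling CD8 T cells and 2 higher in cDC2, as did DESeq2 with 2. Without the library block, the counts higher and lower were 8 and 1 in cycling CD8 T cells, 2 and 8 in NK cells, 27 and 1 in Arg1 macrophages, 0 and 29 in Pf4 macrophages, 24 and 0 in neutrophils and 1 and 17 in cDC2, each within 1.5 times the reported count. No paired analysis was possible between days because each day is 1 library. Depth limits the neutrophils most, with 2218 to 2444 median UMIs per cell.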

Other observations

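Within gates, cells with more RNA of 6 hypoxia response members also tended to have more of the 9 enzymes from Gpi1 to Ldha. Over cells of 1 gate, Spearman's rho between the share of UMIs of Egln3, Ero1l, Ndrg1, Bnip3, Vegfa and Slc2a1 and the share of the 9 enzymes was 0.71, 0.64 and 0.70 in monocytes at days 3, 7 and 14, 0.65, 0.66 and 0.64 in Arg1 macrophages and 0.57, 0.79 and 0.72 in neutrophils. It was 0.65, 0.60 and 0.54 in cDC2, 0.63, 0.30 and 0.39 in non-cycling and 0.38, 0.40 and 0.38 in cycling CD8 T cells, and 0.12, 0.13 and 0.20 in NK cells. The values cover 551, 355 and 295 monocytes and 205, 395 and 154 NK cells. No UMI of the 6 genes was found in 51, 94 and 49 of these NK cells. The same held for 85, 104 and 134 of 187, 252 and 226 non-cycling CD8 T cells, and for 0 Arg1 macrophages at each day. The part of such cells in the lower lymphoid values was not tested. The cells of a value share a library, and both shares rest on the same cell's depth, so these are descriptions.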
